A study of Homo sapiens with 6 samples.

Results

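Transcripts of 36 genes that carry glucose into the cell, break it down by glycolysis, feed the pentose phosphate pathway or respond to low oxygen were followed in K562 cells, an erythroid leukaemia line derived from a patient with chronic myelogenous leukaemia. The genes were taken from a list of symbols and matched by symbol in the count files. The list was chosen with earlier results of these data known, so comparisons of its shares with those of all genes are descriptions only. All 36 were found among 23710 genes, and 35 of them passed the filter on low counts, which 12339 genes passed in all. The treated group received 20 µM 3FM-dC together with 2 mM THU for 24 h, and the control group received the same amount of the solvent DMSO for 24 h. Each group has 3 libraries. Both groups grew in medium with 10% FBS at passages 13 to 16, and no group received 3FM-dC or THU alone, so the parts of the 2 compounds cannot be told apart. The labels give the compounds by these names only. The series sets out to find which transcripts 3FM-dC alters, under a title on a small-molecule activator of the tumour suppressor TET2.

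Glycolysis splits glucose into pyruvate, which is reduced to lactate or enters the mitochondrion. The pentose phosphate pathway branches off after the first step, with an oxidative arm that makes NADPH and a non-oxidative arm that returns sugars to glycolysis and supplies ribose. When oxygen falls, the transcription factor HIF1A is stabilised and binds DNA at a short core sequence near many genes of glycolysis, while the factor MondoA (MLXIP) with its partner MLX senses glucose phosphate and drives TXNIP and ARRDC4. Mature red cells have no source of ATP other than glycolysis.

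Gene counts per library ran from 18408826 to 22750278, and expression is given as CPM, the gene's count scaled to a common library size after TMM normalization. Of 10 K562 markers of the erythroid lineage, 9 fell and TAL1 rose, none was at 0, and their summed level was 7220 to 7390 CPM in DMSO and 3810 to 3980 CPM in treated libraries. The summed level of 6 lymphoid markers was 7.88 to 8.99 CPM in DMSO and 9.57 to 11.3 CPM in treated libraries, with MS4A1 and CD2 at 0 in all of them. That of 6 fibroblast and endothelial markers was 10.4 to 13.9 and 6.91 to 11.5 CPM, with CDH5 at 0. The 6 epithelial markers summed to 102 to 103 and 62.2 to 64.4 CPM, nearly all of it EPCAM, with KRT5 and KRT14 at 0. The part of these shifts in the results was not tested. Whether each replicate was a culture of its own is not stated in the labels. The p-values therefore reflect library-to-library spread, which could be technical.

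Most genes of the glycolytic route were lower after treatment, while TXNIP, ARRDC4, the autophagy receptor BNIP3L and the hypoxia-responsive NDRG1 were higher. Counts were tested with edgeR (quasi-likelihood), and p-values were adjusted by Benjamini-Hochberg over every gene tested. By this test 22 of the 35 tested members fell and 9 rose, and 4 did not pass an adjusted p of 0.05. Among all genes tested, 66.4% passed, 32.7% lower and 33.8% higher, and with libraries scaled by total counts the same test gave 3185 lower and 5059 higher in place of 4031 and 4167. The median log2 fold change was -0.28 over the members and 0.01 over all genes tested. By at least 0.5 on the log2 scale 9 members (25.7%) fell, against 11.4% of all genes, and 6 (17.1%) rose, against 19.2%. By 2-fold or more only ALDOC (2.86%) fell, against 2.46% of all genes, and 5 members (14.3%) rose, against 10.2%. Among those that rose, PDK3 and NDRG1 were tested on the strength of their treated libraries, as their DMSO libraries alone would have failed the filter. The CPM of 30 members (85.7%) did not overlap between the groups, against 70.0% of all genes.

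Some of these calls were small enough to depend on the test. Against a minimum fold change of 1.2, GPI, PFKL, PFKFB3, ENO1, PKM, SLC16A1, PDK3, TALDO1 and HIF1A no longer passed, and the other 22 did. With total counts, PKM (log2 fold change -0.05, adjusted p = 0.146) and HIF1A (-0.11, adjusted p = 0.123) did not pass, ENO1 was lower by 0.08 and SLC16A1 higher by 0.19. Over the alternatives the adjusted p of edgeR or DESeq2 ran from 1.01e-05 to 1.0 for PKM and from 0.00422 to 0.850 for HIF1A. The authors' deposited table compares a group B with a group A that its header does not name. In it 35 members appear, all 35 with the same direction as here, and 29 have an adjusted p under 0.05.

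**Figure D1:**
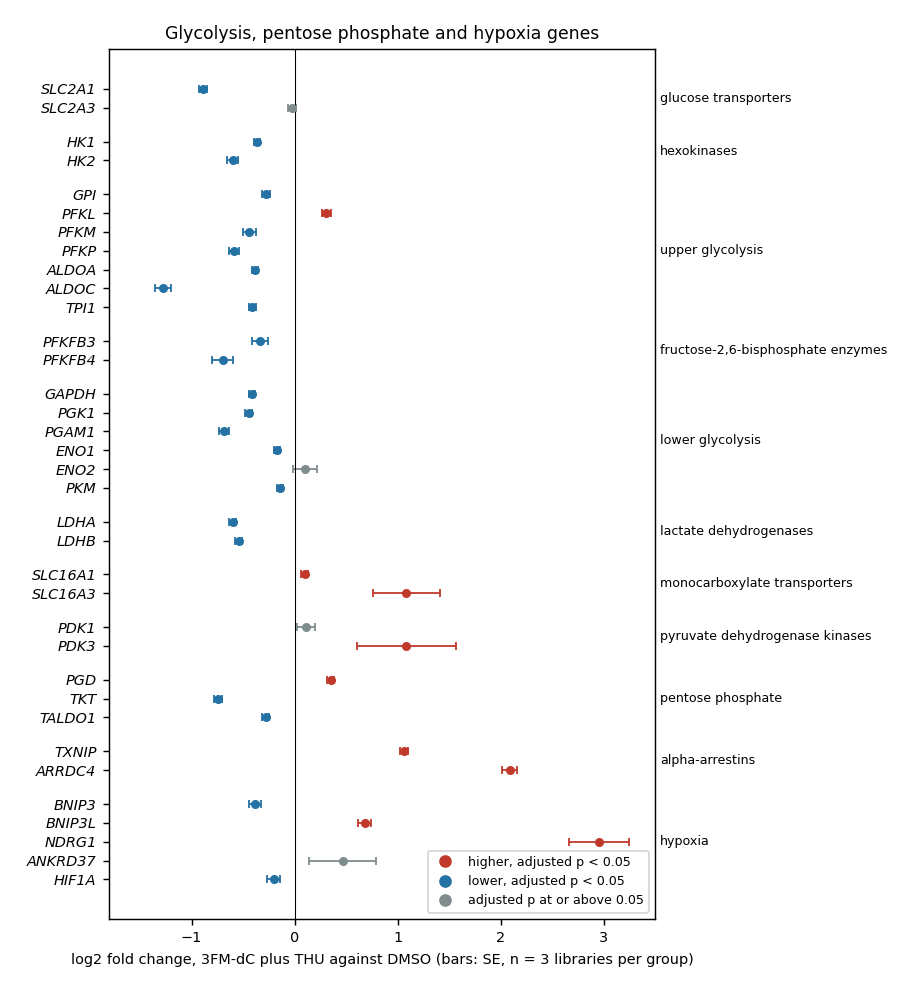
Log2 fold change of the 35 tested members, treated against DMSO, ordered by role from glucose uptake to the hypoxia genes. Points are edgeR estimates from 3 libraries per group, bars are their standard errors, and the points of glycolysis lie left of 0 except PFKL (0.31) and ENO2 (0.10).

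The sequences before 6 members are shown. They are both alpha-arrestins that rose and 2 glycolytic genes that fell and hold ACGTG (ALDOC and LDHA). The other 2 genes lack ACGTG, and of these SLC2A1 fell and PFKL rose. Each sequence is the stretch of 250 bases before a RefSeq transcription start and was matched by symbol. The build is GRCh38.p14, other than the hg19 of the submitters' processing notes. The core of the site that HIF binds has the forms ACGTG and GCGTG. Capitals mark only ACGTG, on either strand, except in TXNIP. In TXNIP they mark a pair of CACGNG letters and the 5 bases between them, the form of a carbohydrate response element, which was searched for after the TXNIP sequence had been seen. TXNIP and LDHA each have another RefSeq start that is not shown, with 1 match of ACGTG for TXNIP and 0 for LDHA. TXNIP lies on the minus strand at chr1:145996580-145996829, ARRDC4 on the plus strand at chr15:97960453-97960702, ALDOC on the minus strand at chr17:28576896-28577145, LDHA on the plus strand at chr11:18394313-18394562, SLC2A1 on the minus strand at chr1:42958869-42959118 and PFKL on the plus strand at chr21:44299803-44300052.
TXNIP: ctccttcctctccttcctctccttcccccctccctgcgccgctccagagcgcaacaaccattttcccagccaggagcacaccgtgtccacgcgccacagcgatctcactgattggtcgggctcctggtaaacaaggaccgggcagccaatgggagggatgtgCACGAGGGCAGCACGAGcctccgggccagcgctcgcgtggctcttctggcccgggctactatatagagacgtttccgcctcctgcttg
ARRDC4: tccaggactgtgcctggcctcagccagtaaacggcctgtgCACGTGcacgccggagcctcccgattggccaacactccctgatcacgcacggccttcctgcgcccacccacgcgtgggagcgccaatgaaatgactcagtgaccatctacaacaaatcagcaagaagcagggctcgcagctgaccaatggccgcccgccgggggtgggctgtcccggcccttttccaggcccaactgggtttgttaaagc
ALDOC: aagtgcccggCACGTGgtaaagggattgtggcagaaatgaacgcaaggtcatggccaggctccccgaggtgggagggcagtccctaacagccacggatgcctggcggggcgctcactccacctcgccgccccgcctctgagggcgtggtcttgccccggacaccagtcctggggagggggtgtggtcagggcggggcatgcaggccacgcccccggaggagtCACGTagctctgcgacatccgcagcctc
LDHA: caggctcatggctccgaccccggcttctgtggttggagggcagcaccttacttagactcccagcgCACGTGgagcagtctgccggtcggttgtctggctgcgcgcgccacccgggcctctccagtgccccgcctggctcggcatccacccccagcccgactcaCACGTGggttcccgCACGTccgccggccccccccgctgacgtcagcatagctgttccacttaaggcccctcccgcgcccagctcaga
SLC2A1: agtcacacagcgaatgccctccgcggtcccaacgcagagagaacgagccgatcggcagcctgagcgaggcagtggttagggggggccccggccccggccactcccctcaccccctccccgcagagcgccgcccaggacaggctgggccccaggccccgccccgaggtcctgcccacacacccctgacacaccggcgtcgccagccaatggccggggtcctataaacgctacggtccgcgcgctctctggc
PFKL: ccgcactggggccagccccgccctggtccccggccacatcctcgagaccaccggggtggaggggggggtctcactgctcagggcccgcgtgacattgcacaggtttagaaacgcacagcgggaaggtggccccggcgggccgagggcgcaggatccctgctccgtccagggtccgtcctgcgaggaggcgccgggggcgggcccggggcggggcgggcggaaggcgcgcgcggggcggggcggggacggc

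The ACGTG core was in 24 of the 60 member promoters used (40%), and in 18.5% of 35116 promoters of the same length. The 60 promoters belong to 32 members, so some members count more than once. The 35116 promoters were not matched to them in expression or base content. Member promoters on the chromosome of NDRG1 were left out, which removed NDRG1, while the 35116 promoters had no such limit. SLC2A3, SLC16A1 and BNIP3L had no promoter entry. By gene, ACGTG was before at least 1 start in 21 of the 32 members used. These were 12 of the 22 members that fell and 5 of the 6 used members that rose. The remaining used members all had it too: ENO2, PDK1 and ANKRD37, which did not pass, and CA9, which was not tested. The share by gene over all genes was not computed. SLC2A1 and PFKL had 0 matches of ACGTG. LDHA had 5 matches and ALDOC had 3, counting both strands, so that each CACGTG counts for 2 overlapping matches. The palindrome CACGTG was in 9 member promoters, among them those of ARRDC4, ALDOC and LDHA, and in 6.34% of all promoters. GCGTG, the other form of the HIF core, was in 33.3% of member promoters, that of PFKL among them, and in 32.2% of all. TGATGNAA, a core of sites bound by ATF4, was in 3.33% of member promoters, both before starts of HK1, and in 3.14% of all. The pair of CACGNG letters was in 1 member promoter, that of TXNIP, and in 0.0456% of all. These are matches of letters and not measured binding.

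Glucose enters K562 cells through facilitated transporters of the SLC2A family, and of the 2 members 1 fell and the other did not pass. SLC2A1, the widespread transporter GLUT1, stood at 314, 300.2 and 302 CPM in DMSO libraries, and treatment left 165, 168 and 163 CPM. All treated libraries lay far below all DMSO ones, and the fall was 1.85-fold (log2 fold change -0.89, SE 0.04, edgeR adjusted p = 6.04e-18). SLC2A3, the high-affinity transporter GLUT3, averaged 226 ± 6.83 CPM with DMSO and 221 ± 9.99 CPM with treatment (SD, n = 3 each), and the groups overlapped (edgeR adjusted p = 0.555). SLC2A3 has a near-identical neighbour, SLC2A14, with which it can share reads. The count of SLC2A3 over that of SLC2A1 within a library was 0.716 to 0.776 in DMSO and 1.25 to 1.40 after treatment. In a bulk sample, fewer cells with a transcript and less of it per cell cannot be told apart.

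Both hexokinases, which trap glucose as glucose 6-phosphate, fell. HK2, the inducible form, had 132, 142 and 138 CPM in DMSO and 94.5, 82.0 and 95.3 CPM after treatment. The groups did not overlap, and treated replicate 2 was the lowest (log2 fold change -0.60, SE 0.05, edgeR adjusted p = 4.40e-11). HK1, the constitutive form, fell 1.29-fold from 1147 ± 7.08 to 891 ± 15.1 CPM. Per kilobase of exonic sequence HK1 was the more abundant of both, with 246 against 23.1 CPM per kb in DMSO and 191 against 15.2 CPM per kb after treatment.

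The steps from glucose 6-phosphate to triose phosphates were lower in 6 of 7 members. GPI, the isomerase that makes fructose 6-phosphate, fell from 557 ± 5.79 to 459 ± 24.5 CPM. The 3 subunit genes of phosphofructokinase, the committed step, did not move together. PFKP, the platelet form, had 168, 164 and 159 CPM in DMSO and 114, 102 and 109.6 CPM after treatment, without overlap (log2 fold change -0.59, SE 0.05, edgeR adjusted p = 4.90e-12). PFKM, the muscle form, fell from 59.7 ± 3.69 to 44.1 ± 2.43 CPM. PFKL, the liver form, rose from 145 ± 5.62 to 179.9 ± 4.03 CPM (log2 fold change 0.31, SE 0.04, edgeR adjusted p = 2.91e-07) and was the only glycolytic enzyme among the members to rise. Per kilobase, PFKL and PFKP stood at 49.2 and 43.3 CPM per kb in DMSO and at 60.9 and 28.8 CPM per kb in treated cells.

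ALDOC, the aldolase of brain, had the largest fall of any member. Its values were 61.3, 68.1 and 67.0 CPM in DMSO and 30.8, 23.6 and 26.8 CPM after treatment. Every treated library was under the lowest DMSO library, and the fall was 2.42-fold (log2 fold change -1.28, SE 0.08, edgeR adjusted p = 1.02e-14). ALDOA, the main aldolase, fell 1.31-fold from 1764 ± 32.0 to 1349 ± 51.6 CPM. TPI1, which interconverts the triose phosphates, fell from 633 ± 2.05 to 476 ± 2.83 CPM.

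PFKFB3 and PFKFB4 make and remove fructose 2,6-bisphosphate, the activator of phosphofructokinase, and both fell. PFKFB4 had 17.4, 18.6 and 18.0 CPM in DMSO and 11.5, 10.6 and 11.1 CPM after treatment. The groups were well apart for this weakly expressed gene (log2 fold change -0.70, SE 0.10, edgeR adjusted p = 9.11e-07). PFKFB3 fell from 36.2 ± 1.51 to 28.7 ± 2.98 CPM.

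The payoff phase of the pathway, which yields ATP, fell in 5 of 6 members. PGAM1, phosphoglycerate mutase, fell most, from 109.9, 115 and 109.6 CPM in DMSO to 70.1, 68.7 and 69.2 CPM after treatment. The treated libraries were tightly grouped (log2 fold change -0.69, SE 0.05, edgeR adjusted p = 5.05e-13). GAPDH, often used as a reference gene in expression assays, fell 1.33-fold from 2846 ± 26.4 to 2140 ± 17.3 CPM. PGK1, the first step that yields ATP, fell 1.36-fold from 583 ± 9.91 to 428 ± 16.8 CPM. ENO1, the main enolase, fell 1.13-fold and PKM, pyruvate kinase, 1.10-fold, both without overlap. ENO2, the neuronal enolase, had 14.3 ± 0.945 CPM in DMSO and 15.3 ± 2.42 CPM after treatment and did not pass (edgeR adjusted p = 0.456). GAPDH, PGAM1, ENO1, TPI1, ALDOA, PGK1, LDHA and LDHB have processed pseudogenes with which they can share reads, so their values are uncertain to that extent.

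Lactate dehydrogenase converts pyruvate to lactate and back, and both subunits fell by similar amounts. LDHA had 1147, 1151 and 1130 CPM in DMSO and 789, 702 and 769.7 CPM after treatment (log2 fold change -0.60, SE 0.04, edgeR adjusted p = 1.10e-14). LDHB had 990.0, 991 and 979 CPM in DMSO and 688, 649.7 and 695 CPM after treatment (log2 fold change -0.54, SE 0.03, edgeR adjusted p = 1.25e-14). For both genes treated replicate 2 was the lowest and no library overlapped. The counts of the 17 enzyme genes from HK1 and HK2 to LDHA and LDHB summed to 14391 ± 98.3 CPM in DMSO and 11297 ± 245 CPM after treatment, a ratio of 0.785 (SD, n = 3 each). Per kilobase, ENO1, GAPDH, ALDOA and LDHB were the 4 most abundant members, in this order, in both groups. ENO1 stood at 1428 CPM per kb in DMSO and 1267 CPM per kb after treatment, and GAPDH at 1280 and 962 CPM per kb.

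**Figure D2:**
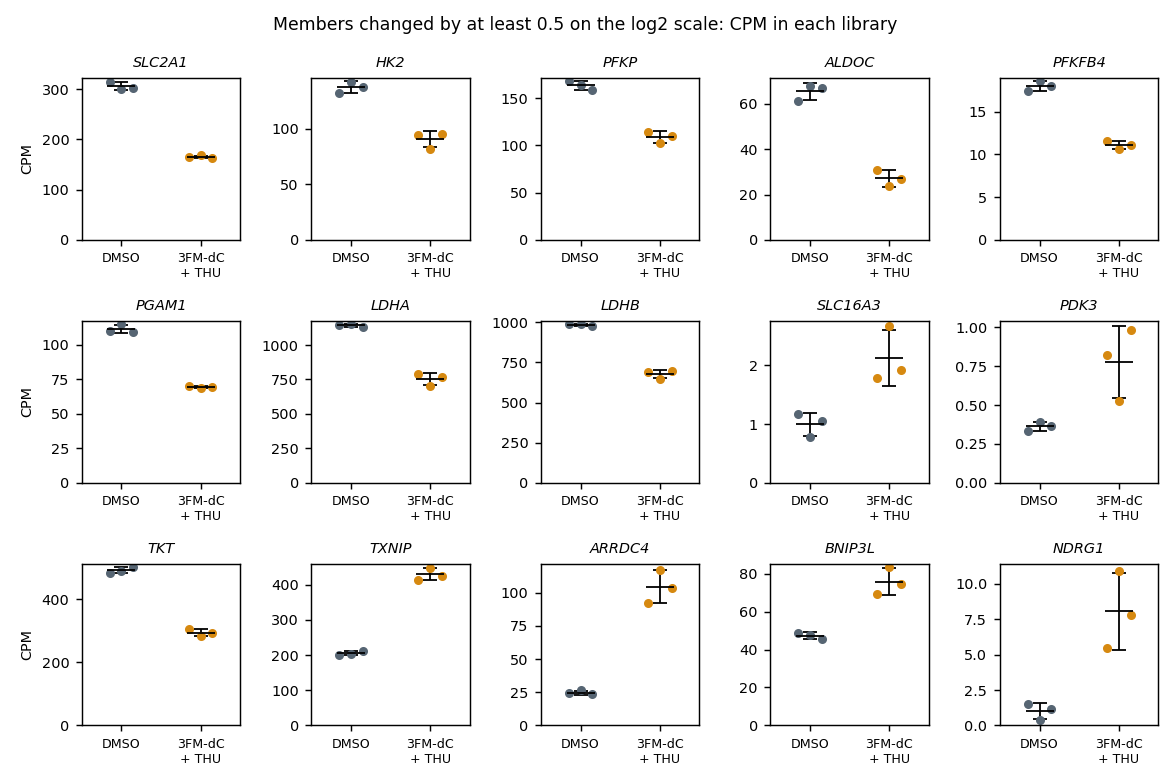
CPM in each library for the 15 members that passed the test with a log2 fold change of at least 0.5 in either direction. Points are libraries, horizontal bars are means and error bars are SDs of 3 libraries, with each axis starting at 0. No panel shows overlap between DMSO and treated libraries, and PDK3 and SLC16A3 stay under 3 CPM.

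Of the 4 lactate transporter and pyruvate dehydrogenase kinase genes among the members, 3 passed as higher and none as lower. SLC16A1, the lactate transporter MCT1, was close to level, with 359 ± 12.2 CPM in DMSO and 384 ± 11.7 CPM after treatment, and the groups overlapped. It passed narrowly (log2 fold change 0.10, edgeR adjusted p = 0.0212) and did not pass without DMSO replicate 2 (0.0736) or 3 (0.113), without treated replicate 1 (0.0849) or 3 (0.0774), or without the count filter (0.0540), over a range of 2.22e-05 to 1.0. SLC16A3, the lactate exporter MCT4, had 1.17, 0.785 and 1.04 CPM in DMSO and 1.79, 2.67 and 1.92 CPM after treatment. These are low levels, from 14 to 23 counts per DMSO library, and the groups did not overlap (log2 fold change 1.09, SE 0.33, edgeR adjusted p = 0.00470).

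PDK1 and PDK3 encode kinases that switch off pyruvate dehydrogenase. PDK1, a classical HIF1A target, had 24.4 ± 2.72 CPM in DMSO and 26.3 ± 1.21 CPM after treatment (edgeR adjusted p = 0.259). With total counts it passed as higher (log2 fold change 0.20, adjusted p = 0.0388, over a range of 0.0388 to 1.0). PDK3 had 0.333, 0.392 and 0.363 CPM in DMSO and 0.820, 0.524 and 0.984 CPM after treatment, from 6 to 8 and 11 to 21 counts. It entered the test through the treated libraries, and the call rests on few counts (log2 fold change 1.08, SE 0.48, edgeR adjusted p = 0.0483). The call was lost with DESeq2 (0.105), with a replicate block (0.0646), without the count filter (0.104) and without any library except treated replicate 2. Without DMSO replicates 1, 2 and 3 the adjusted p was 0.120, 0.0857 and 0.108, and without treated replicates 1 and 3 it was 0.0997 and 0.195, over a range of 0.0313 to 0.195.

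In the pentose phosphate pathway the oxidative enzyme PGD rose while TKT and TALDO1 of the non-oxidative arm fell. PGD, 6-phosphogluconate dehydrogenase, which makes NADPH, rose from 514 ± 3.72 to 654 ± 6.35 CPM (log2 fold change 0.35, SE 0.03, edgeR adjusted p = 1.16e-10). TKT, transketolase, had 485, 489 and 503 CPM in DMSO and 306, 284 and 292 CPM after treatment. Its groups were far apart (log2 fold change -0.74, SE 0.04, edgeR adjusted p = 1.10e-16). TALDO1, transaldolase, fell 1.22-fold from 395 ± 7.78 to 325 ± 6.78 CPM. The count of PGD over TKT within a library, a ratio chosen after these values had been seen, was 1.03 to 1.05 in DMSO and 2.14 to 2.29 in treated libraries.

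TXNIP and ARRDC4, alpha-arrestins that lower glucose uptake, both rose. TXNIP had 201, 204 and 212 CPM in DMSO and 415, 448 and 425 CPM after treatment. The lowest treated library was well above the highest DMSO library, and the rise was 2.09-fold (log2 fold change 1.06, SE 0.04, edgeR adjusted p = 1.23e-19). ARRDC4 had 24.4, 26.3 and 23.4 CPM in DMSO and 92.4, 117 and 104 CPM after treatment. Its rise was 4.23-fold, with treated replicate 2 the highest (log2 fold change 2.09, SE 0.07, edgeR adjusted p = 6.54e-20). Per kilobase, TXNIP moved from rank 16 to rank 11 among the 36 members and ARRDC4 from rank 28 to rank 21. The TXNIP and ARRDC4 promoters printed above differ in the letters searched, since the spaced pair of CACGNG was in TXNIP and CACGTG in ARRDC4.

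The hypoxia members did not share a direction, with 2 higher, 2 lower and 1 that did not pass among 5 tested, and 2 higher and 1 lower with total counts. HIF1A, the oxygen-regulated subunit itself, fell from 44.2 ± 0.826 to 38.4 ± 0.256 CPM (log2 fold change -0.20, edgeR adjusted p = 0.00577). HIF1A is controlled mainly at the level of its protein, which was not measured here. CA9, a carbonic anhydrase that is among the most HIF-dependent genes, was not counted at all in any of the 6 libraries (0 counts), and a limit of 3 counts puts its ceiling at 0.136 to 0.168 CPM, for counting error only. ANKRD37, a small HIF target, had 1.53 ± 0.60 CPM in DMSO and 2.14 ± 0.709 CPM after treatment, with overlap (edgeR adjusted p = 0.210).

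NDRG1, a gene induced by low oxygen and by other stresses, had the largest rise among the members. It had 27, 7 and 26 counts in the DMSO libraries and 107, 229 and 166 in the treated ones, that is 1.5, 0.392 and 1.18 CPM against 5.48, 10.9 and 7.78 CPM. It passed the count filter through the treated libraries, since only 2 of 3 DMSO libraries reached it. The treated mean was 7.87-fold that of DMSO, from a low level, and treated replicate 2 was the highest (log2 fold change 2.96, SE 0.29, edgeR adjusted p = 5.88e-10). BNIP3L, a receptor for the removal of mitochondria that red cell precursors use as they mature, had 48.9, 47.9 and 45.5 CPM in DMSO and 69.5, 83.5 and 74.3 CPM after treatment. No library overlapped (log2 fold change 0.68, SE 0.06, edgeR adjusted p = 1.82e-10). Its paralog BNIP3, also a HIF target, fell from 70.0 ± 2.98 to 53.8 ± 3.15 CPM. The count of BNIP3L over BNIP3 within a library thereby went from 0.646 to 0.716 in DMSO to 1.21 to 1.63 after treatment.

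**Figure D3:**
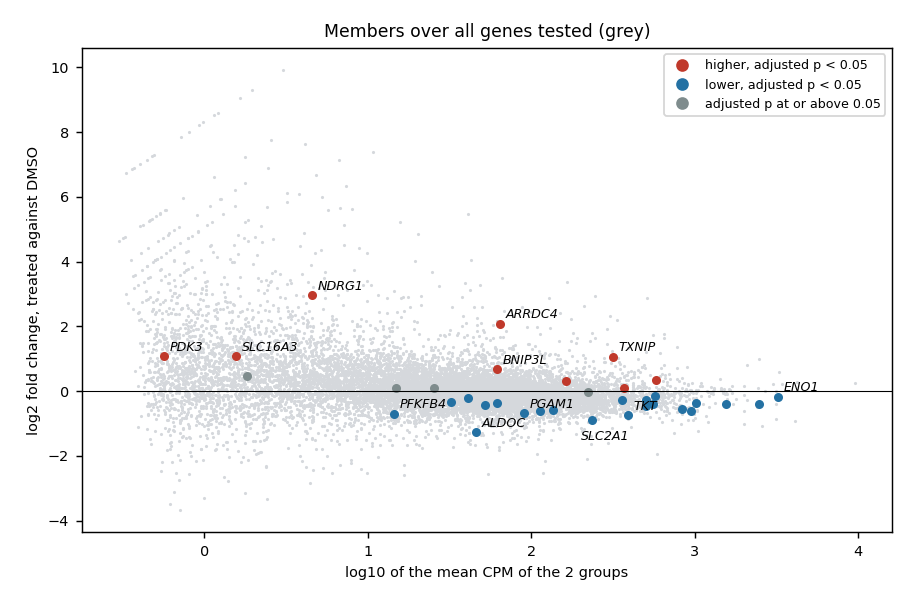
Log2 fold change, treated against DMSO, against the log10 of the mean CPM of both groups, for all 12339 genes tested in grey and the 35 members in colour. Most members lie at the right, among abundant genes, and slightly below 0, while ARRDC4 (2.09), TXNIP (1.06) and NDRG1 (2.96) lie above.

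Ratios between paralogs were compared within libraries, where they do not depend on how libraries are scaled. In 11 of 12 pairs the groups did not overlap. Of all genes tested, 70.0% did not overlap in CPM, and the share among other pairs of genes was not computed. Each of the 11 pairs reached the smallest p that 3 against 3 libraries allow (two-sided exact permutation p = 0.1, adjusted p = 0.109 over 12 pairs). The permutation test therefore cannot pass a threshold of 0.05. SLC2A3 gained on SLC2A1 by 1.81-fold and BNIP3L on BNIP3 by 2.08-fold (0.858 and 1.05 on the log2 scale, with pooled SDs of 0.0737 and 0.161). ARRDC4 gained on TXNIP by 2.02-fold. Relative to PFKL, PFKP fell 1.86-fold and PFKM 1.68-fold, and ALDOC fell 1.86-fold relative to ALDOA. HK2 over HK1 and PFKFB4 over PFKFB3 shifted less, by -0.24 and -0.36 on the log2 scale. LDHB over LDHA shifted by 0.06, and ENO2 over ENO1 by 0.26 with overlap (exact permutation p = 0.2). The ratios with SLC16A3 and PDK3 rose by 0.99 and 0.94, from counts as low as 14 and 6.

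**Figure D4:**
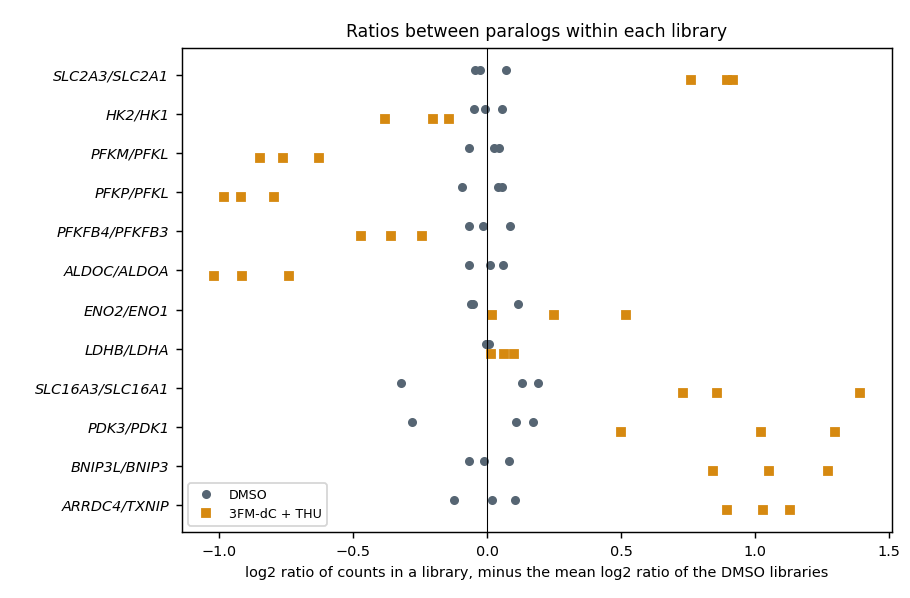
Log2 ratio of the counts of 2 paralogs within each library, minus the mean of the DMSO libraries, for 12 pairs. Circles are DMSO libraries and squares are treated libraries. The groups overlap for ENO2/ENO1 only, and the PFKP/PFKL, PFKM/PFKL and ALDOC/ALDOA ratios lie lower in treated libraries by 0.90, 0.75 and 0.89.

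Other genes of the same pathways were taken from 8 lists. Of 136 such genes in the files 101 were tested, of which 45 (44.6%) fell, 32 (31.7%) rose and 24 did not pass. Their median log2 fold change was -0.11, and with total counts 33 fell and 37 rose. Among all genes tested 32.7% fell and 33.8% rose, the shares to set beside the count of each list below. The genes with the smallest p in each list are named below, together with EGLN3, MLXIP and VEGFA. MPC1, MPC2 and H6PD, and the count ratios PKLR/PKM and EPAS1/HIF1A, were picked once the values were known.

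Among 9 other tested glycolysis genes 4 fell and 1 rose. PKLR, the pyruvate kinase of liver and red cells, fell 4.48-fold, from 201, 202 and 196 CPM in DMSO to 46.9, 41.0 and 45.9 CPM after treatment (log2 fold change -2.16, SE 0.05, edgeR adjusted p = 4.03e-24). The count of PKLR over PKM within a library was 0.327 to 0.341 in DMSO and 0.0758 to 0.0863 after treatment. Of the 10 K562 markers of the erythroid lineage, 9 fell in the same libraries and TAL1 rose, as given above. A link to PKLR was not tested. BPGM, which makes the 2,3-bisphosphoglycerate that tunes haemoglobin in red cells, fell from 32.4 ± 2.72 to 23.0 ± 2.22 CPM. PGAM2, the muscle mutase, rose from 2, 3 and 1 counts in DMSO to 21, 19 and 17 counts and passed the filter through the treated libraries. Of 12 other tested sugar and lactate transporters 5 rose and 4 fell. The falls included SLC2A4, the insulin-regulated GLUT4, from 4.0 ± 0.269 to 0.793 ± 0.197 CPM. SLC2A8, an intracellular transporter, fell from 11 ± 0.601 to 5.61 ± 0.120 CPM and SLC2A13, a carrier of myo-inositol, from 14.8 ± 0.946 to 7.01 ± 1.38 CPM.

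Genes that bring pyruvate into the mitochondrion and oxidise it fell in 7 of 12 tested, and 1 rose. DLAT and PDHA1, subunits of pyruvate dehydrogenase, fell 1.57-fold and 1.40-fold, and PDP2, the phosphatase that switches the complex on, fell 1.67-fold from 50.7 ± 0.676 to 30.3 ± 1.23 CPM. MPC1 and MPC2, the pyruvate carrier of the inner membrane, fell by 0.52 and 0.44 on the log2 scale. Other pentose phosphate genes were split, with 6 of 11 lower and 5 higher. PGLS, the lactonase of the oxidative arm, rose 1.92-fold from 29.7 ± 0.371 to 57.1 ± 2.31 CPM, and H6PD, which runs this arm inside the endoplasmic reticulum, rose from 1.94 ± 0.653 to 12.2 ± 2.47 CPM. RPIA, the isomerase of the non-oxidative arm, fell from 77.4 ± 3.17 to 41.5 ± 3.71 CPM, and PRPS2, which turns ribose 5-phosphate into a nucleotide precursor, from 124 ± 5.79 to 71.5 ± 3.52 CPM.

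Of 13 glycogen genes 2 rose and 5 fell (3 and 3 with total counts). PYGB, the brain form of glycogen phosphorylase, rose 2.97-fold from 28 ± 0.83 to 83.3 ± 0.618 CPM and PYGL, the liver form, 1.58-fold. PHKB, a subunit of the kinase that activates phosphorylase, fell 1.26-fold and did not pass against a minimum fold change of 1.2 (adjusted p = 0.0669, over a range of 2.81e-11 to 0.0669). Of 8 relatives of the glucose sensor and the arrestins 2 rose and 5 fell (3 and 2 with total counts). MLX, the partner of MondoA, fell from 82.2 ± 4.25 to 49.6 ± 1.28 CPM. MLXIPL, which encodes the related factor ChREBP, rose from 2.91 ± 0.881 to 13.1 ± 2.24 CPM, and the arrestin ARRDC3 rose 1.59-fold. MLXIP, the gene of MondoA, fell 1.11-fold (edgeR adjusted p = 0.00536), a call lost with total counts (0.226) and against a minimum fold change of 1.2 (1.0), over a range of 6.61e-04 to 1.0.

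Of 10 tested oxygen-sensing genes 3 rose and 5 fell (5 and 5 with total counts). EPAS1, which encodes HIF2A, had 4.99, 5.49 and 4.95 CPM in DMSO and 27.2, 36.2 and 29.3 CPM after treatment, a rise of 6.0-fold (log2 fold change 2.59, SE 0.12, edgeR adjusted p = 3.51e-17). The count of EPAS1 over HIF1A within a library was 0.110 to 0.126 in DMSO and 0.710 to 0.934 after treatment. VHL, which marks HIF proteins for destruction, rose from 185 ± 3.54 to 302 ± 5.42 CPM, and CUL2, the scaffold of its ligase, fell 1.31-fold. EGLN3, an oxygen-sensing hydroxylase and itself a HIF target, fell 1.52-fold. Of 26 other tested hypoxia targets 13 rose and 9 fell (14 and 5 with total counts). The 3 with the smallest p all rose: DDIT4, an inhibitor of mTORC1, 7.42-fold, RBCK1, a ubiquitin ligase subunit, 3.62-fold, and VEGFA, the angiogenic growth factor, 3.44-fold from 80.7 ± 5.78 to 277 ± 11.9 CPM.

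**Figure D5:**
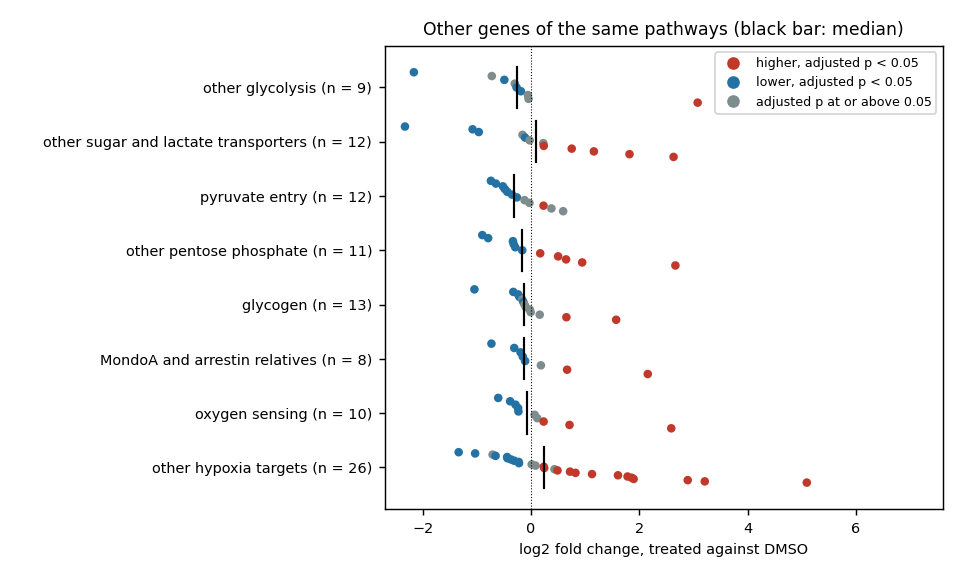
Log2 fold change, treated against DMSO, of 101 tested genes in 8 lists of the same pathways, with the median of each list as a black bar. Points are genes, coloured by the test, and the medians run from -0.31 for the pyruvate entry genes to 0.24 for other hypoxia targets.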

How the data were processed

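For each of the 6 libraries the authors deposited a table of gene symbols with unnormalized counts. Libraries were made with a directional mRNA kit from an input of 1000 ng RNA, per the labels' protocols. Per the submitters' processing notes, STAR, Cufflinks, DESeq2 and hg19 were used, with no roles named. For the counter, its strand setting and the annotation nothing is given in the sources used here, so genes that overlap on opposite strands cannot be told apart. The 5 totals of unassigned reads were left out. Reads in no feature made up 10.9% to 13.1% of all counts and ambiguous reads 2.27% to 2.38%. The authors' deposited table of the series gives a fold ratio and p-values between 2 groups, and served for comparison only.

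Counts were tested with edgeR 4.0.16 (R 4.3.3, limma 3.58.1) by the quasi-likelihood test, two-sided, with TMM scaling, filterByExpr at a minimum count of 10 and treatment as the only term, adjusted by Benjamini-Hochberg over 12339 genes. DESeq2 1.42.0 was an alternative. The script was tested on simulated data. CPM are counts over the TMM-scaled library size. CPM per kb use the union of exons in GENCODE 29 (GRCh38), matched by symbol for all 36 members. Promoter sequences are from RefSeq (GRCh38.p14), matched by symbol for 32 members used. NDRG1 was left out by its chromosome, and SLC2A3, SLC16A1 and BNIP3L had no entry. Replicate pairs of a group differed beyond counting noise (chi-square per degree of freedom 2.38 to 6.22).

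The members and lists were chosen with earlier results of these data known. Values in every library are given for members that passed with a log2 fold change of at least 0.5 in either direction. From each other list the 3 passing genes with the smallest p were named, and EGLN3, MLXIP and VEGFA always.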

Additional observations from a re-analysis of the deposited data

How the results depend on the processing

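Of the counts given for the members, the numbers higher (6 to 10) and lower (16 to 22) stayed within 1.5 times the reported 9 and 22 under all 13 alternatives. Against a minimum fold change of 1.2, 20 of the other pathway genes fell and 25 rose, in place of 45 and 32, so that more rose than fell, and over all genes 2641 rose and 2124 fell. The median log2 fold change of the members was -0.19 with total counts and -0.32 when a mean of 5 CPM was required, and ran from -0.32 without treated replicate 1 to -0.25 without treated replicate 2. Total counts moved the median of all genes from 0.01 to 0.11. With a replicate block, 22 members fell and 8 rose, as PDK3 was lost, and over all genes 3959 fell and 4091 rose. Same-numbered libraries of both groups did not deviate together (correlations across genes of -0.009, 0.001 and -0.06). The labels do not state whether they were paired, and these correlations, from 3 libraries per group, cannot decide it. With a pseudocount of 10 the PDK3/PDK1 difference was 0.39 in place of 0.94, since PDK3 had 6 to 21 counts, and all other paralog differences moved by less than their spread. For SLC16A3/SLC16A1, with counts as low as 14, that spread was wide (pooled SD 0.317), so its difference could move much and stay within it. NDRG1, SLC16A3, PDK3 and ANKRD37 could not be tested at a mean of 5 CPM. Depth limits SLC16A3, PDK3, ANKRD37 and CA9, with counts from 0 to 63 per library.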
